A study of Mus musculus with 6 samples.

Results

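DNA replication genes encode the proteins that license origins, unwind the double helix, copy both strands, and supply the nucleotides for copying. The 44 genes described here were taken by symbol from the 23091 symbols with a usable status in the deposited gene tables, and all 44 were present in each of the 6 tables. They comprise 11 helicase genes (Mcm2 to Mcm7, Mcm10 and Gins1 to Gins4), 8 origin licensing genes (Orc1 to Orc6, Cdc6 and Cdt1), 9 polymerase and primase genes, 6 genes of the sliding clamp and its loader, 3 genes of the single-strand binding complex RPA, 3 genes for joining Okazaki fragments and copying DNA methylation (Fen1, Lig1 and Uhrf1), and 4 genes of nucleotide supply.

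RNA of CD4 T cells from spleen and nodes of C57/Bl6j mice aged 7 weeks was sequenced. NLRP3KO mice, which lack the inflammasome sensor NLRP3, were set beside wild-type (WT) mice. From each genotype there was 1 library of naive cells, 1 library of cells grown for 3 days under T helper type 2 (Th2) conditions and 1 library of cells grown for 6 days. Th2 cells were kept in 10 ng/ml IL-4 with an antibody that blocks IFNgamma, on plates coated for CD3 and CD28. The labels do not say how many mice gave each library. Purified mRNA went into the naive libraries and rRNA-depleted RNA into the Th2 libraries, so stage and library kind cannot be told apart. With 1 library per group, a comparison of single libraries has no replicate check, and it is given without a p-value. 1 fit over all 6 libraries, with genotype and stage as terms, comes after those comparisons.

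In a resting T cell the origin recognition complex, CDC6 and CDT1 load the MCM helicase onto DNA only once the cell is driven towards division. CDC45 and GINS then complete the helicase, and the primase, the polymerases and the PCNA clamp start to copy. Many of these genes are known targets of E2F transcription factors, which the retinoblastoma protein family holds back in resting cells and which rise in activity before S phase. Naive T cells rest outside the cell cycle, and activation through CD3 and CD28 starts rounds of fast division.

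Because E2F proteins are the shared regulator best known for these genes, their promoters were searched for E2F site letters. The windows ran from 250 bases before to 50 bases after the gene start in RefSeq on GRCm38.p6, and the 8-letter motifs were TTTCCCGC, TTTCGCGC, TTTGCCGC and TTTGGCGC on both strands, which may overlap each other. Of the 44 genes 37 were found in the table by symbol, with 46 windows. At least 1 match stood in 16 of these 46 windows (34.8%), against 744 of all 32851 windows (2.26%). Counted by gene, 16 of 37 replication genes (43.2%) and 704 of all 27025 genes (2.6%) had a match. By role, matches were found for 5 of 7 helicase genes, 4 of 8 licensing genes, 4 of 7 polymerase and primase genes, 2 of 3 genes among Fen1, Lig1 and Uhrf1, and 1 of 5 clamp and loader genes. RPA (3 genes) and nucleotide supply (4 genes) had none. A match is a description of letters, not of a bound site.

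5 windows are shown, 5′ to 3′ on the strand of the gene, to let the letters be compared with the values below. Capitals mark the matches. Mcm3, Mcm5 and Mcm6 are helicase subunits and Cdt1 loads them. Pcna, the most abundant of the 44 genes in 5 of 6 libraries, is shown as a gene whose window had no match. The windows lie at chr1:20820263-20820562 (minus strand) for Mcm3, chr8:75109259-75109558 (plus strand) for Mcm5, chr1:128359656-128359955 (minus strand) for Mcm6, chr8:122567765-122568064 (plus strand) for Cdt1 and chr2:132253131-132253430 (minus strand) for Pcna.

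Mcm3: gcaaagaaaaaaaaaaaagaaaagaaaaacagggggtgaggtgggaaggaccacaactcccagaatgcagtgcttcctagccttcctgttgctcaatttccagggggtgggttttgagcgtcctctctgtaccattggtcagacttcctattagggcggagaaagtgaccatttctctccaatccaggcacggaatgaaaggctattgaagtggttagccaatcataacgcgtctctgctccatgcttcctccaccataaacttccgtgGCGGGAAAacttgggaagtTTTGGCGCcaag

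Mcm5: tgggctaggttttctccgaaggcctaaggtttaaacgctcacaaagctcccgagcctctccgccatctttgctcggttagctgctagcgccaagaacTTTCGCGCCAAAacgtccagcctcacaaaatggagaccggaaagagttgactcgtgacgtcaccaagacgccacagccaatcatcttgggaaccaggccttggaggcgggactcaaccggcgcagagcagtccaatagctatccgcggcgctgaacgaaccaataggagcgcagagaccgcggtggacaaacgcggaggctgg

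Mcm6: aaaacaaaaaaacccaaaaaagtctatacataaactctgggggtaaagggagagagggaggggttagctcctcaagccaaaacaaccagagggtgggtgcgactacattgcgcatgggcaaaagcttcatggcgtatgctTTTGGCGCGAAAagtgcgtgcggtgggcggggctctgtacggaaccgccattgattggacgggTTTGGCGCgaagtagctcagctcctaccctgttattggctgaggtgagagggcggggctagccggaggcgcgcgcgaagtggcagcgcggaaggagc

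Cdt1: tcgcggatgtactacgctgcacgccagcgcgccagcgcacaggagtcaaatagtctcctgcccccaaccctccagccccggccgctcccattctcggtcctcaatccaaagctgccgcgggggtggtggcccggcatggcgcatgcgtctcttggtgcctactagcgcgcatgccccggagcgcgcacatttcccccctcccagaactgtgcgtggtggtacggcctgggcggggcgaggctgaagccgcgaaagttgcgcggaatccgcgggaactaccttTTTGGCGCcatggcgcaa

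Pcna: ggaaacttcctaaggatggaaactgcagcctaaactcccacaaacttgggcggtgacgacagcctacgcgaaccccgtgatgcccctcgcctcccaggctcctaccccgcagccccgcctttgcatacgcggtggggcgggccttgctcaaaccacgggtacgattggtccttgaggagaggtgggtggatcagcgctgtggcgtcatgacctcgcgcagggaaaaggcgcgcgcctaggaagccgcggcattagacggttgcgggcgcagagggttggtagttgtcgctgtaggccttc

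In Mcm5 and Mcm6 overlapping matches on opposite strands formed 1 longer run of capitals, which began 153 bases before the start of Mcm5 and 110 bases before that of Mcm6. Mcm6 had a further match that began 47 bases before the start. The matches of Mcm3 and Cdt1 lay after the start, beginning 19 and 38 bases into Mcm3 and 32 bases into Cdt1.

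The libraries differed in depth far more than in the share given to replication genes. Fragment numbers were inferred from the deposited confidence bounds. Among naive cells, an estimated 1369218 fragments lay on genes in NLRP3KO and 1620542 in WT. The day 3 libraries had 24714 in NLRP3KO and 29652 in WT, and the day 6 libraries 5522 in NLRP3KO and 30866 in WT. Nlrp3 itself was listed at 0 in all libraries but naive WT, where its FPKM of 0.0569 was 1 fragment, so the loss of the gene could not be checked. T cell markers were present (10 of 10 above 0 in both naive libraries and in both WT Th2 libraries, 9 in NLRP3KO day 3 and 7 in NLRP3KO day 6), while the CD8, myeloid, NK and erythroid markers and Foxp3 were listed at 0 in all 4 Th2 libraries. For WT day 3 against WT naive cells, the 95% upper limit of the share ratio was 1.95 for CD8, 2.12 for myeloid and 3.19 for NK markers. It was 1.75 for Foxp3 and 0.105 for erythroid markers, so only the erythroid limit lay below 1. B cell markers had 5 fragments in NLRP3KO and 9 in WT at day 3. Libraries of pooled cells cannot tell fewer dividing cells from less of a transcript per cell.

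Of the 44 replication genes, 42 were above 0 in each naive library. At day 3, 26 were above 0 in NLRP3KO and 37 in WT, and at day 6, 18 in NLRP3KO and 39 in WT. The NLRP3KO library thus had the shorter list at both Th2 times. At least 3 fragments stood behind 13 genes in NLRP3KO and 24 in WT at day 3, and behind 1 gene in NLRP3KO and 24 in WT at day 6. A transcript of 2 kb needed an FPKM of 3.40 in NLRP3KO and 2.68 in WT to reach 3 fragments at day 3. At day 6 it needed 12.5 in NLRP3KO and 2.88 in WT, and 12.5 lay above the WT day 6 FPKM of every replication gene but Pcna. The map of levels by gene and library lays out where the zeros fell.

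**Figure D1:**
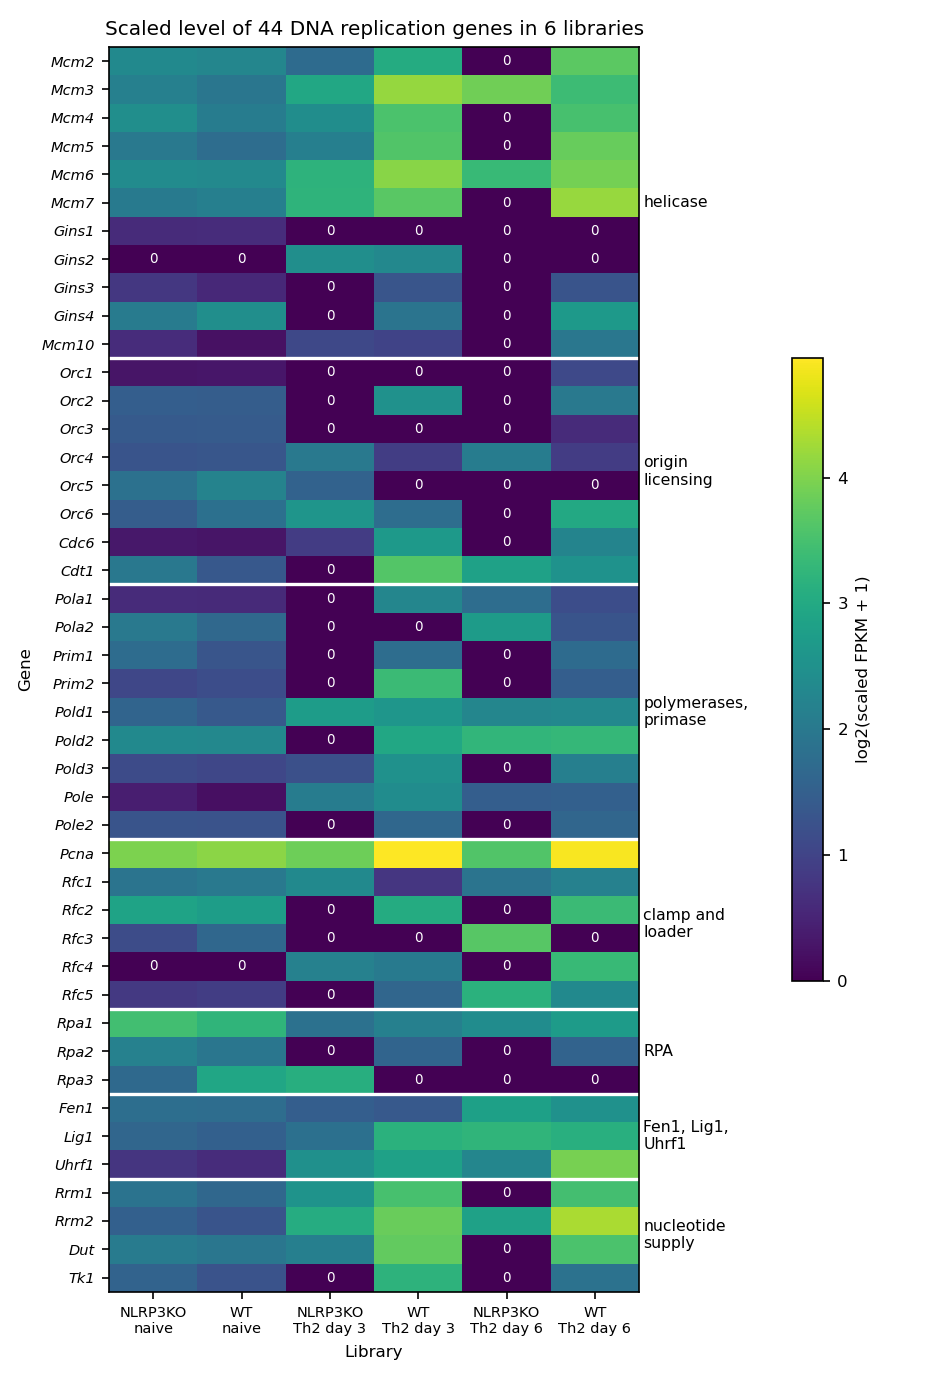
Level of each of the 44 DNA replication genes (rows, grouped by role) in the 6 libraries (columns); colour is log2(scaled FPKM + 1), and a white 0 marks a gene listed at 0. The WT Th2 columns are the brightest for Mcm2 to Mcm7 and Pcna, apart from Mcm3 at day 6, and the NLRP3KO day 6 column holds 26 zeros.

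Taken as a pool, the replication genes held a larger share of fragments in WT Th2 cells than in any other library. Of every 1000000 fragments on genes they took 2311 in NLRP3KO and 1968 in WT naive cells, 3075 in NLRP3KO (76 fragments) and 6172 in WT (183 fragments) at day 3, and 3984 in NLRP3KO (22 fragments) and 6253 in WT (193 fragments) at day 6. The WT Th2 libraries stood close to each other, with a ratio of 1.01 of day 6 to day 3 (95% interval 0.823 to 1.25). Intervals here are exact binomial ones and cover counting error only, not variation between mice or cultures.

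**Figure D2:**
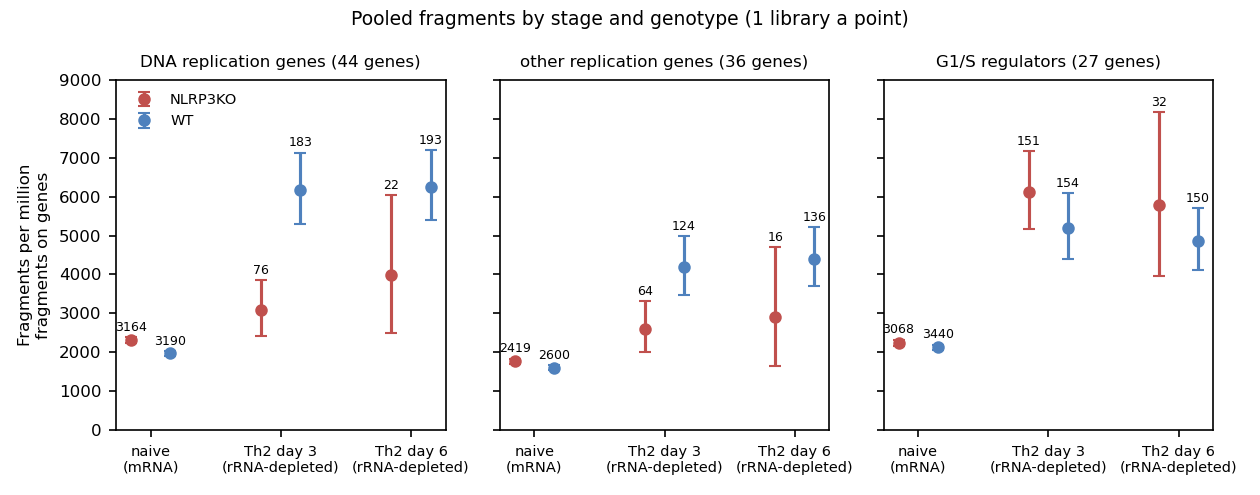
Fragments per 1000000 fragments on genes (y axis) by stage (x axis) for the 44 replication genes, 36 other replication genes and 27 G1/S regulators; each point is 1 library, bars are 95% counting intervals and the numbers above are fragments. In the left and middle panels the NLRP3KO point lies below the WT point at days 3 and 6, and in the right panel it lies above on this scale of shares.

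The first comparison asks whether the replication genes differ by genotype after 3 days of Th2 culture. Replication genes were lower in the NLRP3KO library than in the WT library at day 3. Their pooled share was 0.496 times that of WT (0.376 to 0.655), from 76 fragments in NLRP3KO and 183 in WT. The ratio ran from 0.454 to 0.501 under the other scalings and without the gene with the most fragments. It was 0.469 (0.283 to 0.755) for Mcm2 to Mcm7 and 0.510 (0.363 to 0.720) for the 38 other genes, so both parts of the list lay on the same side. Of the 37 genes kept (FPKM of 1 or more in either library), 21 were at least 2-fold lower and 4 at least 2-fold higher in NLRP3KO on the log2 scale of scaled FPKM plus 1. Over all genes kept in this comparison 27.2% were 2-fold lower and 25.4% were 2-fold higher, against 56.8% and 10.8% of the kept replication genes. The median log2 difference was -1.21 for the kept replication genes and 0.11 for all kept entries. In 14 of the 37 genes 1 library was listed at 0. Among the 23 above 0 in both libraries the median was -0.76, against 0.11 for all entries above 0 in both. With an FPKM of at least 5 required in either library, 6 were 2-fold lower and 0 higher.

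Each role pooled lower in NLRP3KO as a share of fragments on genes, to different extents and with wide intervals. On summed scaled FPKM the same held for 6 of the 7 roles, while RPA turned round to 1.85. The helicase genes stood at 0.476 times the WT share (0.293 to 0.754), the polymerase and primase genes at 0.423 (0.200 to 0.838), the licensing genes at 0.397 (0.144 to 0.977) and the nucleotide supply genes at 0.446 (0.199 to 0.989). For the clamp and loader (0.750, 0.304 to 1.76), RPA (0.899, 0.132 to 5.32) and Fen1, Lig1 and Uhrf1 together (0.600, 0.205 to 1.59) the interval reached above 1. The differences between roles were not tested. As shares of fragments on genes, 29 of the 44 genes were lower in NLRP3KO, 10 were higher and 5 were listed at 0 in both. The 29 were 74.4% of the genes with a fragment in either library, against 47.4% of all such genes, and the 10 higher ones were 25.6%, against 52.6%.

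**Figure D3:**
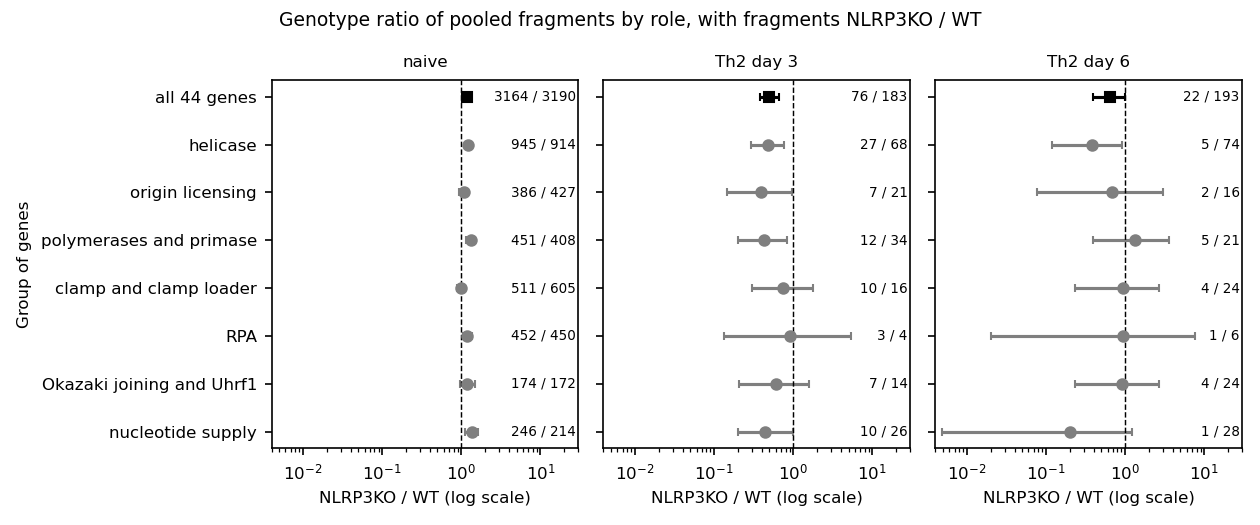
Ratio of NLRP3KO to WT in pooled fragments as a share of fragments on genes (x axis, log scale) for all 44 genes (black square) and each role (grey), at the 3 stages; bars are 95% counting intervals and the numbers are fragments in NLRP3KO / WT. At day 3 all 7 roles lie left of 1, and the day 6 bars are wide. The naive ratios of the roles run from 0.999 to 1.36. Their bars lie above 1 for the helicase, the polymerases and primase, RPA and nucleotide supply.

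FPKM of single genes are given as deposited. The median-ratio factors were 0.245 for NLRP3KO and 0.328 for WT naive cells, so deposited naive FPKM read high in NLRP3KO beside WT. On scaled FPKM NLRP3KO was the lower naive library for Mcm7 (3.05 against 3.39 in WT), Prim2 and Pcna. The MCM2 to MCM7 proteins form the ring that unwinds DNA. Mcm3 had an FPKM of 14.0 in NLRP3KO and 8.64 in WT naive cells, 3.84 in NLRP3KO and 8.46 in WT at day 3, and 8.44 in NLRP3KO and 5.18 in WT at day 6. The day 3 values rested on 5 fragments in NLRP3KO and 14 in WT, and the day 6 values on 3 and 8. NLRP3KO was thus the lower library at day 3 and the higher one at day 6, and the deposited bounds overlapped at both times.

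Mcm5 stood at 12.3 in NLRP3KO and 7.41 in WT naive cells, 1.93 in NLRP3KO and 5.56 in WT at day 3, and was listed at 0 in NLRP3KO and at 7.04 in WT at day 6. Mcm2 stood at 16.8 in NLRP3KO and 11.7 in WT naive cells, 1.30 in NLRP3KO and 3.59 in WT at day 3, and at 0 in NLRP3KO and 6.61 in WT at day 6. Mcm4 stood at 18.1 in NLRP3KO and 9.87 in WT naive cells, 2.44 in NLRP3KO and 5.29 in WT at day 3, and at 0 in NLRP3KO and 5.67 in WT at day 6. In these 3 genes NLRP3KO was the higher naive library and the lower Th2 library at both times. Their log2 differences at day 3 were -1.46 for Mcm5, -1.31 for Mcm2 and -1.13 for Mcm4.

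Mcm6 had an FPKM of 17.4 in NLRP3KO and 12.2 in WT naive cells, 4.58 in NLRP3KO and 7.81 in WT at day 3, and 5.60 in NLRP3KO and 7.73 in WT at day 6. Mcm7 had an FPKM of 12.5 in NLRP3KO and 10.3 in WT naive cells, 4.67 in NLRP3KO and 5.89 in WT at day 3, and was listed at 0 in NLRP3KO and at 9.46 in WT at day 6. Both were lower in NLRP3KO at day 3 by less than 2-fold, with log2 differences of -0.87 for Mcm6 and -0.47 for Mcm7. None of the 6 ring genes had day 3 bounds that kept clear of each other, and the interval of each single share ratio held 1.

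The other helicase genes were scarce. Mcm10, which helps to switch the helicase on, lay between 0.494 and 1.59 in the Th2 libraries where it was above 0, and was listed at 0 in NLRP3KO day 6. The GINS genes, whose products join the ring in the active helicase, reached at most 2.91 in any Th2 library, and all 4 were listed at 0 in NLRP3KO day 6. Gins2 was listed at 0 in both naive libraries and Rfc4, a clamp loader gene, likewise. Both carried an upper bound above 0 there, so these zeros may be failed estimates.

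Among origin licensing genes, Cdt1, which carries the MCM ring to origins, was the gene most clearly apart at day 3. It lies on chromosome 8, 125091915 to 125097030 on mm9. Its FPKM was 12.0 in NLRP3KO and 4.78 in WT naive cells, it was listed at 0 in NLRP3KO and at 5.67 in WT at day 3, and it was 3.77 in NLRP3KO and 2.60 in WT at day 6. The WT day 3 value rested on 7 fragments (bounds 2.27 to 9.82), and NLRP3KO had none. The share ratio of 0 had an upper limit of 0.832, and Cdt1 was the 1 replication gene whose interval at day 3 lay below 1. That is 2.56% of the 39 replication genes with a fragment in either library, against 1.02% of all genes, so the count says little. No replication gene had an interval above 1, which 1.87% of all genes had. In naive cells the order was the other way, with a ratio of 2.02 (1.36 to 2.96) from 76 fragments in NLRP3KO and 45 in WT.

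Cdc6, which recruits the ring together with CDT1, had 1 fragment in NLRP3KO and 7 in WT at day 3, and 0 and 5 at day 6. Subunits of the origin recognition complex did not share 1 direction at day 3. Orc2 was listed at 0 in NLRP3KO and at 2.33 in WT, while Orc4 (1.69 in NLRP3KO and 0.426 in WT), Orc5 (1.10 and 0) and Orc6 (2.79 and 1.20) were higher in NLRP3KO on 1 to 3 fragments. Orc1 and Orc3 were listed at 0 in both libraries.

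The polymerase and primase genes had 12 fragments in NLRP3KO and 34 in WT at day 3. Pola1 encodes the catalytic subunit of the polymerase that extends primers, on chromosome X, 90550105 to 90877494 in mm9. Its FPKM was 2.18 in NLRP3KO and 1.52 in WT naive cells. It was listed at 0 in NLRP3KO and at 1.91 in WT at day 3, and it was 1.48 in NLRP3KO and 0.683 in WT at day 6. Only the day 3 pair had bounds apart, on 6 fragments in WT, and the upper limit of its share ratio was 1.02.

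Prim2 encodes the large primase subunit, on chromosome 1, 33510656 to 33726603 in mm9. Its FPKM was 4.39 in NLRP3KO and 3.85 in WT naive cells. It was listed at 0 in NLRP3KO at both Th2 times, against 4.62 in WT at day 3 and 0.990 in WT at day 6. The WT day 3 value was 5 fragments, and the share ratio had an upper limit of 1.31. Cdt1, Pola1 and Prim2 were the 3 genes at least 2-fold lower at day 3 with deposited bounds that did not overlap, a share of the 37 kept genes to be read beside 2.42% of all kept genes. A gene listed at 0 mostly has bounds of 0 and 0, so that criterion is easily met and the fragment intervals are the stricter reading.

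Pold2, a small subunit of polymerase delta, had an FPKM of 16.6 in NLRP3KO and 12.1 in WT naive cells, was listed at 0 in NLRP3KO and at 3.39 in WT at day 3, and had 5.27 in NLRP3KO and 4.84 in WT at day 6. It was low in NLRP3KO at day 3 alone, on 3 WT fragments. Pold1, the catalytic subunit of the same enzyme, was 3.21 in NLRP3KO and 2.52 in WT at day 3, with 5 fragments in each. Pole, the catalytic subunit of the leading-strand polymerase, had 6 fragments in NLRP3KO and 9 in WT. Prim1, Pole2 and Pola2 had at most 1 fragment in any Th2 library.

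Pcna, the ring that tethers polymerases to DNA, was the highest of the 44 genes in every library but NLRP3KO day 6, where Mcm3 was. Its FPKM was 60.1 in NLRP3KO and 49.1 in WT naive cells, 7.55 in NLRP3KO and 14.9 in WT at day 3, and 6.93 in NLRP3KO and 15.9 in WT at day 6. The naive order of Pcna turned round on scaled FPKM. NLRP3KO was the lower library at both Th2 times, with log2 differences of -1.10 and -1.29, but the bounds at day 3 (1.67 to 13.4 in NLRP3KO and 6.57 to 22.3 in WT) overlapped. Pcna has processed pseudogenes in the mouse genome, and how reads shared with them were assigned was not tested.

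Rfc2, a clamp loader subunit, had an FPKM of 25.8 in NLRP3KO and 17.6 in WT naive cells and was listed at 0 in NLRP3KO at both Th2 times, against 3.62 in WT at day 3 and 5.16 in WT at day 6. Rfc1, the large subunit of the same loader, went against the list at day 3, with 2.30 in NLRP3KO on 5 fragments and 0.362 in WT on 1 fragment. Rfc3, Rfc4 and Rfc5 had between 0 and 3 fragments in every Th2 library.

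RPA coats the single strands that the helicase exposes. Rpa1, its large subunit, was the second gene after Pcna in naive cells (40.5 in NLRP3KO and 25.7 in WT). It had 1.45 in NLRP3KO and 1.71 in WT at day 3 and 2.66 in NLRP3KO and 3.06 in WT at day 6. These FPKM are not scaled between the library kinds. As a share of fragments on genes, RPA at day 3 stood at 0.367 times naive (0.0756 to 1.08) in NLRP3KO. In WT it stood at 0.486 (0.132 to 1.25), and both intervals held 1. Rpa2 and Rpa3, the smaller subunits, had at most 1 fragment in any Th2 library. Rpa3 had 9.13 in NLRP3KO and 20.1 in WT naive cells.

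Lig1, the ligase that seals Okazaki fragments, had an FPKM of 8.66 in NLRP3KO and 5.70 in WT naive cells, 1.43 in NLRP3KO and 3.93 in WT at day 3, and 5.23 in NLRP3KO and 4.21 in WT at day 6. Uhrf1, which brings the maintenance methyltransferase DNMT1 to newly copied DNA, had 2.89 in NLRP3KO and 1.70 in WT naive cells, 2.58 in NLRP3KO and 3.05 in WT at day 3, and 2.36 in NLRP3KO and 7.83 in WT at day 6. Uhrf1 held an estimated 14 fragments in WT day 6, the most of any of the 44 genes there, and its bounds in the Th2 pairs overlapped. Fen1, the flap nuclease, was near level at day 3 with 1 fragment in each library.

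Nucleotide supply genes were lower in NLRP3KO in all 4 cases at both Th2 times. Of all kept entries, 47.1% were lower at day 3 and 65.0% at day 6. The day 6 pool rested on 1 fragment in NLRP3KO and 28 in WT, with a share ratio of 0.201 (0.00488 to 1.21). Rrm1, the large subunit of ribonucleotide reductase, had an FPKM of 11.0 in NLRP3KO and 6.53 in WT naive cells, 2.73 in NLRP3KO and 5.16 in WT at day 3, and was listed at 0 in NLRP3KO and at 5.53 in WT at day 6. Rrm2, the small subunit of the same enzyme, had 7.55 in NLRP3KO and 4.37 in WT naive cells, 4.14 in NLRP3KO and 6.51 in WT at day 3, and 3.79 in NLRP3KO and 10.5 in WT at day 6. Both subunits thus stood higher in NLRP3KO among naive cells and lower in NLRP3KO among Th2 cells.

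Dut, which clears dUTP, had an FPKM of 13.0 in NLRP3KO and 8.61 in WT naive cells, 1.90 in NLRP3KO and 6.25 in WT at day 3, and was listed at 0 in NLRP3KO and at 5.86 in WT at day 6, on at most 3 Th2 fragments per library. Tk1, the thymidine salvage kinase, had 0 fragments in NLRP3KO and 3 in WT at day 3. The plot of FPKM and bounds covers the 17 genes chosen by their Th2 level, their fragments or their bounds. Among Th2 libraries only those of WT had 10 fragments on 1 gene, so that choice favours genes high in WT.

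**Figure D4:**
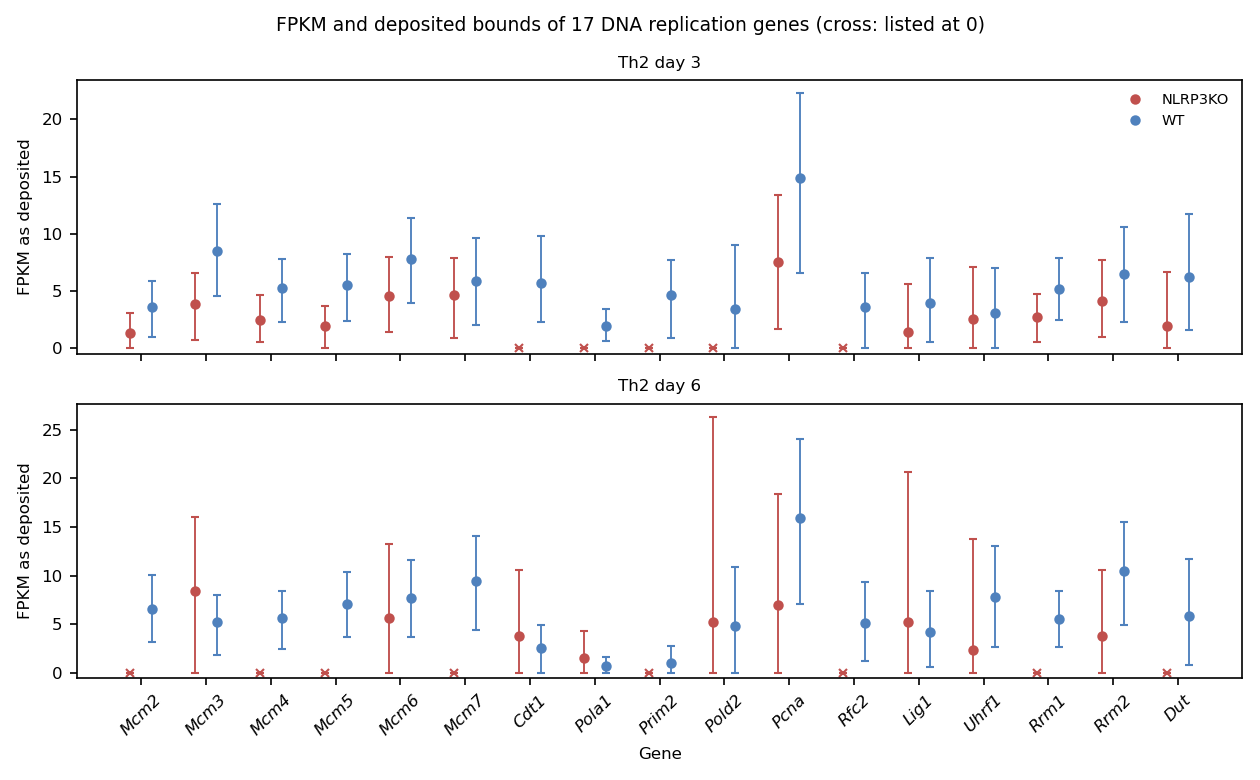
FPKM as deposited (y axis) of 17 replication genes (x axis) at day 3 (top) and day 6 (bottom), NLRP3KO in red left of WT in blue; bars are the deposited bounds and a cross marks a gene listed at 0. At day 3 the red point lies below the blue one in this chosen set, whereas 10 of all 44 genes were higher in NLRP3KO as shares; the day 3 bars overlap except for Cdt1, Pola1 and Prim2.

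The naive comparison sets the genotypes side by side before culture. Replication genes as a pool were slightly higher in NLRP3KO, at 1.17 times the WT share (1.12 to 1.23) from 3164 fragments in NLRP3KO and 3190 in WT. The excess shrank to 1.09 (1.04 to 1.14) with median-ratio scaling and to 1.02 for summed scaled FPKM. T cell markers had a ratio of 1.15 (1.12 to 1.18), B cell markers of 0.429 (0.381 to 0.481) and erythroid markers of 0.487 (0.448 to 0.530) in the same pair of libraries, and their part in the replication result was not tested. The erythroid pool mixed directions: of its 7 entries 2 were 2-fold higher and 3 were 2-fold lower in NLRP3KO on scaled FPKM plus 1. Of 41 kept genes 0 were 2-fold higher and 1, Rpa3, was 2-fold lower in NLRP3KO on the log2 scale of scaled FPKM plus 1, against 0.21% and 2.32% of all kept genes. As shares, Cdt1 (2.02), Mcm10 (3.41, 1.47 to 8.80) and Pole (2.37, 1.23 to 4.73) were more than 2-fold higher. As shares of fragments on genes 32 genes were higher, 10 lower and 2 listed at 0 in both, so that 76.2% of those with fragments were higher and 23.8% lower, against 59% and 41% of all genes. The interval lay above 1 for Mcm4, Mcm5, Mcm10, Cdt1, Pola2, Prim1, Pole, Rpa1 and Rrm1, and below 1 for Rpa3. These 9 genes and 1 gene (21.4% and 2.38%) stand beside 16.2% and 8.99% of all genes, so the count of 9 is near the background. Foxp3, the marker of regulatory T cells, stood at 2.17 (1.72 to 2.74) in that comparison.

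At day 6 the NLRP3KO library held 22 fragments on replication genes and the WT library 193, a share ratio of 0.637 (0.390 to 0.993). Without Uhrf1 the ratio was 0.657 (0.396 to 1.03), and with median-ratio scaling it was 0.439 (0.269 to 0.684). Of 36 kept genes 21 were 2-fold lower and 3 were 2-fold higher in NLRP3KO, against 53.8% and 20.9% of all kept genes. The 58.3% of replication genes that were lower is near that background, so the count says little about them. Mcm2, Mcm4, Mcm5, Mcm7, Rfc2, Rrm1 and Dut were at least 2-fold lower with bounds apart, beside 12.2% of all kept genes. Each was listed at 0 in NLRP3KO, and the upper limit of its share ratio ran from 1.83 for Mcm5 to 13.5 for Dut, so a difference in these single genes was not detectable at this depth. The 3 genes higher in NLRP3KO, Orc4, Pola2 and Rfc3, had 1 fragment each there.

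The next comparisons follow the replication genes into Th2 culture, across a change of library kind. In WT, day 3 held 3.14 times the naive share of replication fragments (2.69 to 3.64), and in NLRP3KO 1.32 times (1.05 to 1.67). With median-ratio scaling the ratios were 2.67 (2.28 to 3.10) for WT and 1.14 (0.897 to 1.43) for NLRP3KO. In WT 21 of 42 kept genes were 2-fold higher at day 3 than in naive cells and 7 were lower, against 9.99% and 31.3% of all kept genes. In NLRP3KO 9 of 43 were 2-fold higher and 14 lower, against 10.8% and 32.1%. The direction rested on scaling between the library kinds. On FPKM as deposited, 4 genes were higher and 19 lower in WT, and 2 higher and 35 lower in NLRP3KO.

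Among genes above 0 in WT naive cells, those with the highest share ratios in WT day 3 against WT naive cells were Pole at 32.7 (12.7 to 80.0), from 9 fragments at day 3 and 15 in naive cells, Cdc6 at 29.2 (9.94 to 79.4), from 7 and 13 fragments, Uhrf1 at 13.0 (4.40 to 32.8), Rrm2 at 10.8 (4.32 to 23.0), Pola1 at 9.06 (3.14 to 21.8), Prim2 at 8.67 (2.60 to 22.1) and Cdt1 at 8.57 (3.23 to 19.0). These 7 were picked after their values were seen. The Mcm ring genes ran from 2.22 for Mcm2 (0.876 to 4.65) to 7.07 for Mcm3 (3.75 to 12.4). Rpa1 went the other way at 0.482 (0.099 to 1.42). The share interval lay above 1 for 21 genes in WT and for 7 in NLRP3KO, and below 1 for 0 in either. Above 1 it was 47.7% of replication genes in WT and 15.9% in NLRP3KO, against 7.48% and 7.07% of all genes, while 3.96% and 3.32% of all genes lay below 1. Both counts of replication genes include Gins2, with 1 fragment in each day 3 library and a listing at 0 in both naive libraries. At these depths 1 fragment against a naive 0 puts the interval above 1, and that 0 may be a failed estimate. In NLRP3KO, Uhrf1 (7.56, 1.95 to 21.8), Rrm2 (4.63, 1.21 to 12.6) and Mcm7 (3.17, 1.01 to 7.72) were among the 7. The difference between the genotypes in this rise was not tested.

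The WT day 6 and day 3 libraries were then set side by side for single genes. Of 35 kept genes 5 were 2-fold higher at day 6 (Orc6, Rfc1, Rfc4, Fen1 and Uhrf1) and 5 were 2-fold lower (Gins2, Cdt1, Pola1, Prim2 and Tk1), against 24.1% and 20.2% of all kept genes. None of the 10 had bounds apart, which 1.61% (higher) and 1.23% (lower) of all kept genes had. In NLRP3KO, day 6 stood at 1.30 times the day 3 share (0.767 to 2.11), and at 0.972 (0.573 to 1.57) with median-ratio scaling. There 8 of 29 kept genes were 2-fold higher and 11 lower, against 21% and 51.8% of all kept genes.

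A fit over all 6 libraries, added after the data were seen, asked for 1 genotype difference shared by the 3 stages and 1 stage difference shared by both genotypes (limma on log2 of scaled FPKM plus 1, 2 residual degrees of freedom). It tested 43 of the 44 replication genes among the 10542 that reached an FPKM of 1 in some library. For NLRP3KO against WT, limma called 0 replication genes and 0% of all genes at an adjusted p under 0.05. At an unadjusted p under 0.05 there were 0 replication genes, and 7 higher and 131 lower genes of all. By sign alone, 34 of the 43 were lower and 9 higher in NLRP3KO, beside 6570 lower and 3972 higher of all 10542 genes. The median log2 difference was -0.78 for the replication genes, against -0.16 for all genes. This fit includes the NLRP3KO day 6 library, in which 26 of the 44 genes were listed at 0. In the day 6 pair alone the median was -1.60 for kept replication genes and -1.52 for all kept entries. The 10542 genes also include those that reached an FPKM of 1 in naive cells only. How far depth shapes the signs and medians of the fit was not tested.

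For day 3 against naive in the same limma fit, Gins2 was higher (log2 difference 2.39 ± 0.35 SE, adjusted p = 0.034) and Gins1 lower (-0.62 ± 0.08 SE, adjusted p = 0.034), beside 0.74% of all genes higher and 11.8% lower. Both calls rest on zeros, which have no spread. Gins2 had 1 fragment in each day 3 library and 0 in the remaining 4. Gins1 was listed at 0 in all 4 Th2 libraries and had 6 fragments in NLRP3KO and 7 in WT naive cells. For day 6 against day 3 limma called 0 replication genes and 0% of all genes, and at an unadjusted p under 0.05 there was 1 replication gene higher, Pola2, and 1 lower, Gins2. These p-values measure the spread left after both terms, so a genotype difference that changes between stages widens it.

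Within a library, the makeup of the replication fragments by role does not depend on scaling between libraries. Mcm2 to Mcm7 gave 26.7% (25.2 to 28.3) of them in NLRP3KO and 25.3% (23.8 to 26.9) in WT naive cells, 32.9% (22.5 to 44.6) in NLRP3KO and 35.0% (28.1 to 42.4) in WT at day 3, and 22.7% (7.82 to 45.4) in NLRP3KO and 35.2% (28.5 to 42.4) in WT at day 6. The clamp and loader gave 13.2% (6.49 to 22.9) in NLRP3KO and 8.74% (5.08 to 13.8) in WT at day 3, and the polymerases and primase 15.8% in NLRP3KO and 18.6% in WT. The genotype intervals of each role overlapped at day 3, and the difference in makeup was not tested. RPA gave 3.95% (0.822 to 11.1) in NLRP3KO and 2.19% (0.599 to 5.50) in WT at day 3, against 14.3% and 14.1% in the naive libraries of NLRP3KO and WT. Nucleotide supply stood at 13.2% (6.49 to 22.9) in NLRP3KO and 14.2% (9.50 to 20.1) in WT at day 3, against 7.77% in NLRP3KO and 6.71% in WT naive cells. Culture and library kind changed together between these stages.

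**Figure D5:**
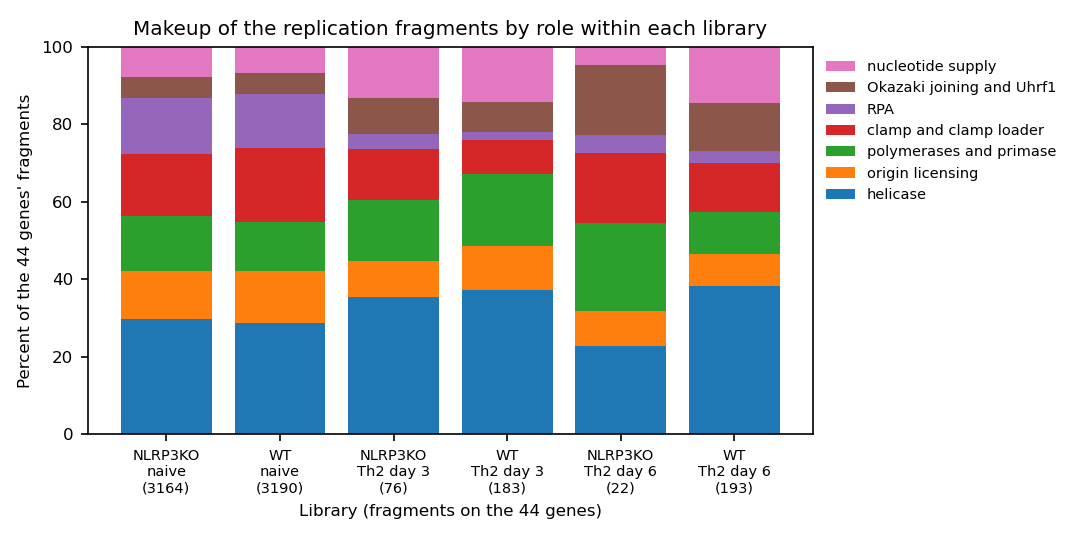
Percent of the 44 genes' fragments (y axis) held by each role in the 6 libraries (x axis, fragments in brackets). The RPA band takes 14.3% and 14.1% of the naive bars and at most 4.55% of the Th2 bars. The helicase band is wider than in the naive bars in both WT Th2 bars and in NLRP3KO day 3 (35.5%). In NLRP3KO day 6 it is narrower (22.7%), on 5 fragments.

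Other genes of the replication pathway, listed by function, were lower in the NLRP3KO day 3 library as well. Of 37 listed 36 were found, and their pooled share was 0.624 times that of WT (0.451 to 0.844), from 64 fragments in NLRP3KO and 124 in WT. Of 26 kept, 12 were 2-fold lower and 3 were 2-fold higher (46.2% and 11.5%), against 27.2% and 25.4% of all kept genes. At day 6 the ratio was 0.671 (0.366 to 1.11). Top2a, the topoisomerase that untangles copied chromosomes, was not among the lower genes at day 3: its FPKM was 10.5 in NLRP3KO and 6.55 in WT naive cells, 9.13 in NLRP3KO and 7.51 in WT at day 3, and 9.12 in NLRP3KO and 14.4 in WT at day 6. Dnmt1, the maintenance methyltransferase, had 23.5 in NLRP3KO and 11.5 in WT naive cells, 3.62 in NLRP3KO and 6.65 in WT at day 3, and 7.55 in NLRP3KO and 8.0 in WT at day 6. Dnmt1 was thus lower in NLRP3KO at day 3 and higher in NLRP3KO among naive cells, while its day 6 values were close and their order depends on the scaling. Slbp, which binds histone mRNA, had 19.6 in NLRP3KO and 11.9 in WT naive cells, 3.54 in NLRP3KO and 5.57 in WT at day 3, and was listed at 0 in NLRP3KO and at 4.77 in WT at day 6. Top1, the other main topoisomerase of replication, had 31.0 in NLRP3KO and 32.8 in WT naive cells, 1.14 in NLRP3KO and 3.13 in WT at day 3, and 2.08 in NLRP3KO and 0.960 in WT at day 6.

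The genes that govern entry into S phase (E2F proteins, the retinoblastoma family, G1 cyclins and their kinases and inhibitors) stood at another ratio, and the difference between the lists was not tested. Their 27 genes pooled to 1.18 times the WT share at day 3 (0.934 to 1.48), from 151 fragments in NLRP3KO and 154 in WT, and to 1.15 (0.863 to 1.56) without Ccnd2, a cyclin D gene with the most fragments of the list. The direction depends on the scale, since summed scaled FPKM gave 0.965. Without Cdkn1a the share ratio was 1.09 (0.852 to 1.39) and that of summed scaled FPKM 0.825. Cdkn1a, which encodes the p21 inhibitor of cyclin-dependent kinases and binds PCNA, had an FPKM of 0.186 in NLRP3KO and 0.252 in WT naive cells, 26.2 in NLRP3KO and 11.3 in WT at day 3, and 13.1 in NLRP3KO and 7.03 in WT at day 6. It was named after its values were seen, and it held an estimated 44 fragments over the 4 Th2 libraries. Of the 20 kept genes of this list, 5 were 2-fold higher and 5 were 2-fold lower in NLRP3KO at day 3. These 25% each stand beside 25.4% and 27.2% of all kept genes. Among the 5 lower were Cdk4 (FPKM of 7.01 in NLRP3KO and 17.9 in WT), E2f4 (2.28 and 8.96) and Myc (6.53 and 12.5). T cell markers pooled to 1.47 at day 3 (1.06 to 2.03), from 88 fragments in NLRP3KO and 72 in WT, and their part in the replication result was not tested.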

How the data were processed

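For each library the authors deposited FPKM values (fragments scaled to transcript length and library size) by gene, with bounds and a status column, per the file headers. The submitters' processing notes name TopHat, Cufflinks and mm9. Versions, gene annotation and strand handling were not given in the sources used here. A table had 23700 entries, and 285 with too little data were left out. Since FPKM hold no counts, count models were not applied.

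Libraries were scaled by median ratio over the 1059 genes with FPKM of at least 1 in all 6 libraries. Differences are log2(scaled FPKM + 1), which understates those of low genes, and genes with FPKM of at least 1 in either library were kept and counted at 2-fold. Between 2 libraries, scaling by fragments on genes instead shifts every log2 difference, by 0.11 for naive and 0.11 for day 3 genotype pairs, 0.54 for the day 6 pair, 0.23 for day 3 against naive in WT and in NLRP3KO, and 0.41 for NLRP3KO day 6 against day 3.

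Fragments were inferred from FPKM, bounds and model length, with library totals of 3112345 (NLRP3KO) and 4571257 (WT) for naive, 475361 and 604216 for day 3, and 129744 and 562337 for day 6. Of 120 values above 0 in the Th2 libraries, 109 (90.8%) came out whole within 0.1. Lengths were chosen, where possible, to bring a gene's Th2 fragments near whole numbers, so that share is not an independent check. Lengths came from the bounds for 29 genes, from a common step for 6 and from GENCODE M21, matched by symbol, for 9 (Uhrf1, Lig1 and Dut among them). Pools are compared as shares of all fragments on genes, without small RNAs, Rn45s and models of up to 300 bases, and intervals (95%, exact binomial) cover counting error only, since PCR fragments carried no molecular identifiers. The inference was tested on simulated data. A limma fit (limma 3.58.1, R 4.3.3, Benjamini-Hochberg adjustment over all genes) with genotype and stage as terms was added after the data were seen. It was run on simulated data with normal noise of the same size for all genes, which lack the zeros of these data. Python 3.11.15, pandas 2.3.3 and scipy 1.17.1 were used.

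Values in every library are given for the 12 genes highest in scaled FPKM over the Th2 libraries, those with 10 fragments in a Th2 library, and those 2-fold apart by genotype with bounds that do not overlap, and for up to 4 other replication genes. The 44 genes, the other lists and this rule were chosen with earlier results of these data known. Alternatives covered pseudocount, filter, scaling, bounds and left-out genes.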

Additional observations from a re-analysis of the deposited data

Results flagged for a closer look

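On the scale of shares, the genotype difference of the pooled replication genes changed direction between stages. The share ratio of NLRP3KO to WT was 1.17 in naive cells, 0.496 at day 3 and 0.637 at day 6, on 1 library each, and the difference between stages was not tested. On summed scaled FPKM the naive ratio was near level at 1.02, with 0.454 at day 3 and 0.439 at day 6. In the naive pair 59% of all genes had a higher share in NLRP3KO. Cdt1 had a ratio of 2.02 in naive cells and of 0 at day 3, where 0 fragments stood in NLRP3KO and 7 in WT. At day 6 its ratio was 1.87 (0.0355 to 23.2) on 1 fragment in NLRP3KO, so the lower value was at day 3 alone. This change was not tested either.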

How the results depend on the processing

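No paired analysis was possible because, within each comparison, a group was 1 library and the labels carry no replicate numbers. Over all 6 libraries, a limma fit that pairs the genotypes by stage called 0 replication genes by genotype. Under the alternatives tried, 66 of 94 counts stayed within 1.5 times their value and 30 of 35 pooled ratios stayed within their counting interval. The other values follow, and the cause was not tested. Requiring FPKM of at least 5 gave 0 genes higher and 6 lower for NLRP3KO against WT at day 3, 1 and 10 at day 6, 1 and 1 for WT day 6 against day 3, and 3 and 0 for NLRP3KO day 6 against day 3. It gave 11 genes higher for WT and 5 for NLRP3KO at day 3 against naive. Bounds that do not overlap left 0 genes higher and 3 lower at day 3 by genotype, 0 and 7 at day 6, 0 lower in naive cells, 0 and 0 for WT day 6 against day 3, 0 and 3 for NLRP3KO day 6 against day 3, and 2 higher for day 3 against naive in WT and 2 in NLRP3KO. With the further demand that the unscaled deposited bounds lie higher at day 3, those last counts were 1 in WT and 0 in NLRP3KO. Without scaling, 2 genes were higher in naive NLRP3KO than in naive WT, 3 were lower for WT day 6 against day 3, and for day 3 against naive 4 were higher and 19 lower in WT, and 2 higher and 35 lower in NLRP3KO, which turns the direction of the WT counts. A pseudocount of 0.1 gave 1 gene higher in naive NLRP3KO. Median-ratio scaling and summed scaled FPKM gave pooled ratios of 1.09 and 1.02 for the naive genotype pair and 2.67 and 2.30 for WT day 3 against naive, and summed scaled FPKM gave 1.03 for NLRP3KO day 3 against naive. The limma fit, leaving Lars2 out of the fragments on genes, and scaling without the NLRP3KO day 6 library were alternatives chosen after seeing the data. Depth limits single genes most: in NLRP3KO day 6 a gene needed an FPKM of 12.5 on 2 kb for 3 fragments.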
